A study of Mus musculus with 12 samples.

Results

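Mature miRNAs of 4 related families (miR-466, miR-669, miR-467 and the scarcer miR-297) were followed in AKR-2B cells, a mouse fibroblast line, grown as colonies in soft agar, a medium in which cells grow without attachment. Members were chosen by name, as every row of the mature miRNA count table whose name begins with 1 of these 4 family names (miR-297, miR-466, miR-467, miR-669) and goes on with a letter or a hyphen. This took 80 of the 1281 mature miRNAs in the table. All colonies were grown with vehicle or with 25 ng/mL TGFβ, a growth factor that drives fibroblasts to proliferate and to make matrix, and were recovered after 2, 4 or 8 days. There was 1 miRNA library per treatment and day, 6 in all, with 6 mRNA libraries from the same design, and all came from the single line AKR-2B. No difference within a day therefore has a replicate check. In such bulk samples, fewer cells of a kind and less RNA per cell cannot be told apart.

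A miRNA gene is transcribed as a longer RNA that folds into a hairpin, and the hairpin is cut to a short duplex. Either strand of the duplex can be loaded into an Argonaute protein, and the strands are named 5p and 3p after the arm of the hairpin they come from. The loaded strand recognises target mRNAs mainly through its seed, bases 2 to 8. The 4 families belong to a repeat-rich miRNA cluster of rodents that lies in an intron of Sfmbt2, a gene for a Polycomb protein that is imprinted in mouse extraembryonic tissue.

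In the GRCm38 annotation (GENCODE M21), Sfmbt2 spans chr2:10370510-10595253 on the plus strand. Of 81 annotated precursor genes of the 4 families, 71 lay inside Sfmbt2 on its own strand, all within intron 11 of the principal transcript (chr2:10461473-10523944), and 0 overlapped an exon. These 71 precursors took up 51.6 kb and comprised 29 of miR-669, 23 of miR-466, 14 of miR-467 and 5 of miR-297. The order miR-467, miR-466, miR-669 recurred 11 times along the intron, with 502 to 518 bases from the start of the first to the start of the third precursor of a set. The other 10 precursor genes lay on chromosomes 3, 5, 7, 9, 10, 11 and 13, so the family names do not mark this locus alone. Among them was Mir466i (chr13:17747473-17747593), the precursor of miR-466i-3p.

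RefSeq (GRCm38.p6) gave the mature sequence of 8 of the 80 members, all from precursors outside Sfmbt2. They are shown 5′ to 3′ with the seed in capitals, because they make visible the AC-rich and GU-rich repeats that these members carry. The first 4 hold ACACAC and the last 4 hold GUGUGU.
miR-466i-3p: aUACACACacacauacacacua
miR-466q: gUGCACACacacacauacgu
miR-467f: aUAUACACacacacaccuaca
miR-467g: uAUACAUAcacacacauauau
miR-466j: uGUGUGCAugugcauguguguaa
miR-466k: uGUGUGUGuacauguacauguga
miR-467h: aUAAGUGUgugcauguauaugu
miR-669n: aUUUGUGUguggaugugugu
No seed was shared by any pair of the 8. The AC-rich miR-466i-3p (chr13:17747552-17747573, plus strand) was 86.4% A or C, whereas the GU-rich miR-669n (chr3:115979905-115979924, plus strand) was 90% G or U. Searched as RNA letters on the mature strand only, ACACAC stood in 11 of the 1029 mature mouse sequences of the RefSeq table (1.07%) and GUGUGU in 16 (1.55%). A match is a description of the letters, not a binding site. Of the 8, only miR-466i-3p was well covered, with 224 reads over the 6 libraries. miR-466q and miR-467h had 0 reads, and the other 5 had 3 to 6 reads each.

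Library totals ran from 108716 reads (vehicle, day 2) to 1387785 reads (TGFβ, day 8). One read was worth 9.20 CPM (reads scaled to a fixed library total) in the shallowest library and 0.721 CPM in the deepest, before scaling. Levels below are CPM after trimmed mean of M-values (TMM) scaling over miRNAs, with factors from 0.838 to 1.17. A list of 6 miRNAs common in mesenchymal cells, among them miR-21a-5p and miR-199a-3p, summed to between 109252 and 303056 CPM in every library. The sum was at 122260, 127049 and 109252 CPM with vehicle and at 241930, 282041 and 303056 CPM with TGFβ at days 2, 4 and 8. The sum thus moved with treatment, at days 4 and 8 in the direction opposite to the 4 families, and its part in their results was not tested. The miRNAs of the list did not all move alike. At day 2, log2 changes with TGFβ were -0.11 for miR-143-3p, -1.58 for miR-145a-5p and -0.15 for miR-199a-3p. They were 1.64 for miR-21a-5p, 0.45 for miR-214-3p and 0.18 for miR-199a-5p. At days 4 and 8 only miR-143-3p was lower, at -0.75 and -0.60. Of the 4 leukocyte miRNAs listed, 2 were in the count table, miR-223-3p and miR-150-5p. They had 2 reads together in the TGFβ library of day 8 (1.66 CPM) and 0 in the others. Both arms of miR-142a were missing from the count table under that name, so their level is not known. The erythroid miRNAs miR-451a and miR-144-3p and the neuronal miR-124-3p had 0 reads. The nerve list's other miRNA, miR-9-5p, was at 318 to 547 CPM in every library, and the liver miRNA miR-122-5p was at 47.2 CPM in the TGFβ library of day 2 and at 0 to 11.1 CPM in the others. The striated muscle list (miR-1a-3p, miR-133a-3p and miR-206-3p) was at 89.1, 22.2 and 15.4 CPM with vehicle and at 218, 119 and 131 CPM with TGFβ at days 2, 4 and 8, so it too moved with treatment, and its part was not tested. Epithelial miRNAs (the miR-200 family and miR-205) summed to 784 CPM in the TGFβ library of day 2 and to 2.20 to 48.6 CPM in the others. Their part in the day 2 values was not tested.

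Of the 80 members, 66 had at least 1 read in some library, and 14 had none, among them miR-467b-3p, miR-669g and both arms of miR-669k. A mean of at least 10 CPM over the 6 libraries was reached by 34 members, which are named below with their values. The remaining 32 detected members had at most 27 reads each and 246 reads together, out of 12909 for all members. At least 1 read was seen for 45 and 43 members in the vehicle and TGFβ libraries of day 2. The numbers were 50 and 48 at day 4 and reached 58 and 61 at day 8. The most abundant 4, miR-669c-5p, miR-466f-3p, miR-669a-3p and miR-466h-3p, held 55.2% of the members' reads. Members with a read numbered 26 of 31 names in the miR-466 family, 24 of 30 in miR-669, 11 of 13 in miR-467 and 5 of 6 in miR-297.

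Summed over all 80 members, the families were higher in vehicle colonies at day 4 than at day 2 and lower with TGFβ than with vehicle at days 4 and 8. The sum was 4196 and 4021 CPM at day 2 (vehicle, then TGFβ), then 10869.6 and 2833 at day 4 and then 7475 and 3553 at day 8. The vehicle libraries of days 4 and 8 were the highest of the 6, and the TGFβ library of day 4 was the lowest. The TGFβ to vehicle ratio was 0.958 (0.854 to 1.08) at day 2, an interval that includes 1. With total counts it was 0.800 (0.713 to 0.899) and without miR-669c-5p 0.832 (0.718 to 0.966), so the day 2 reading depended on these choices. At day 4 it was 0.261 (0.243 to 0.279), and at day 8 0.475 (0.454 to 0.497). Here and below, brackets after a ratio hold an exact conditional binomial 95% interval, which covers counting error only, since no molecular identifiers tell PCR copies apart in these counts. The differences at days 4 and 8 are larger than counting error, and the spread between replicate colonies is not known.

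The difference was larger in the 3p arms than in the 5p arms. Members named 3p summed to 1199 and 1256 CPM at day 2 (vehicle, then TGFβ), then 7776 and 1118 at day 4 and then 4968 and 1599.6 at day 8. Members named 5p summed to 2940.5 and 2677 CPM at day 2 (vehicle, then TGFβ), then 2720.2 and 1666 at day 4 and then 2284 and 1853 at day 8. The 3p sum of the vehicle libraries at days 4 and 8 lay above the other 4 libraries by more than their counting error, whereas the 5p sums lay within a much narrower range with the TGFβ library of day 4 lowest.
The 3p ratio of TGFβ to vehicle was 1.05 (0.845 to 1.30) at day 2, 0.144 (0.129 to 0.160) at day 4 and 0.322 (0.303 to 0.342) at day 8. In folds, TGFβ colonies were 6.95-fold lower at day 4 and by day 8 still 3.11-fold lower. The 5p ratio was 0.910 (0.791 to 1.05), 0.612 (0.550 to 0.682) and 0.811 (0.753 to 0.874) at the same days. At days 4 and 8 the intervals of the 3p and 5p ratios do not overlap.

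The day course also differed between arms. In vehicle colonies the 3p sum at day 4 was 6.49 times (5.49 to 7.72) that at day 2, and at day 8 it was 4.14 times (3.51 to 4.93). In TGFβ colonies it was 0.890 times (0.754 to 1.05) at day 4 and 1.27 times (1.11 to 1.47) at day 8. The 5p sum of vehicle colonies moved to 0.925 times (0.815 to 1.05) and 0.777 times (0.688 to 0.878) its day 2 level. With TGFβ the 5p sum was 0.622 times (0.551 to 0.703) its day 2 level at day 4 and 0.692 times (0.625 to 0.767) at day 8. With vehicle the 3p sum was thus above its day 2 level at both later days, by more than counting error, and with TGFβ only at day 8 and by less. The day 2 vehicle library is shared by both vehicle ratios and is the shallowest, with 148 reads of 3p members.

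A measure that needs no scaling between libraries is the share of 3p reads among the members' reads with an arm in the name. It was 29.0% (Wilson 95% interval 25.2 to 33.0) and 31.9% (28.5 to 35.6) in the vehicle and TGFβ libraries of day 2. At day 4 it was 74.1% (72.4 to 75.7) with vehicle and 40.2% (37.3 to 43.1) with TGFβ. By day 8 the shares were 68.5% (66.9 to 70.1) for vehicle and 46.3% (44.8 to 47.9) for TGFβ. Summed over the families, the vehicle libraries of days 4 and 8 thus held mostly 3p reads and the other 4 mostly 5p reads. The families differed in level: miR-466 was mostly 3p in all 6 libraries, from 60.6% to 91.1%, while miR-467 went from 51.6% with vehicle to 13.9% with TGFβ at day 4 and from 43.6% to 13.0% at day 8. For miR-669 the shares were 52.4% and 23.3% at day 4, then 49.4% and 34.1% at day 8. Within miR-466 the day 4 shares were 88.6% with vehicle and 67.7% with TGFβ, so each of these 3 families had the higher 3p share with vehicle at day 4. Over all other miRNAs the same share lay between 29.2% and 36.8% in every library, with 36.8% and 35.5% in the vehicle and TGFβ libraries of day 4.

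**Figure D1:**
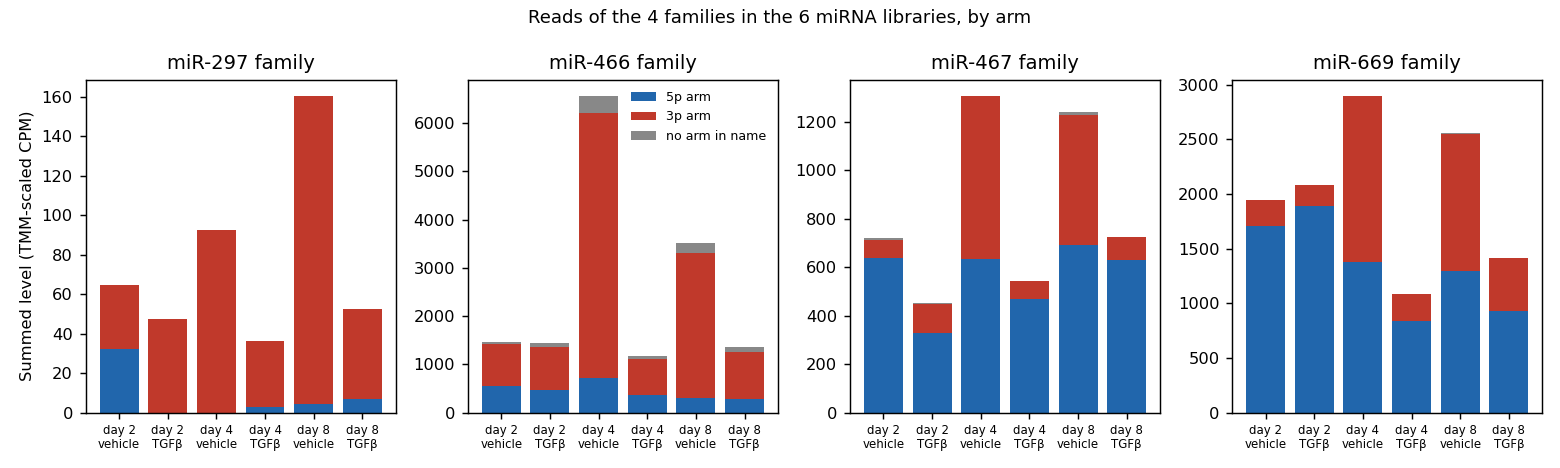
Summed TMM-scaled CPM (vertical axis, a separate linear scale for each panel) of each family in the 6 libraries, with 1 library per bar, stacked by 5p arm, 3p arm and members with no arm in the name. The 3p segments are tall in the vehicle libraries of days 4 and 8 and short elsewhere, while the 5p segments of miR-466, miR-467 and miR-669 change less.

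By family, miR-466 was the most abundant in the vehicle libraries of days 4 and 8 and had the lowest ratio at day 4. Its sum was 1466 and 1439 CPM at day 2 (vehicle, then TGFβ), then 6568 and 1165 at day 4 and then 3518 and 1358 at day 8. The ratio was 0.177 (0.160 to 0.197) at day 4 and 0.386 (0.360 to 0.414) at day 8, with 3p members at 0.137 (0.121 to 0.156) and 5p members at 0.508 (0.406 to 0.635) at day 4.
The miR-669 family summed to 1944 and 2081 CPM at day 2 (vehicle, then TGFβ), then 2901 and 1089.6 at day 4 and then 2556 and 1417 at day 8. It was lower with TGFβ at day 4, at 0.376 (0.333 to 0.423), and at day 8, at 0.554 (0.514 to 0.598), and its arms separated at day 4 into 0.167 (0.133 to 0.209) for 3p and 0.606 (0.520 to 0.705) for 5p. Without its most abundant member, miR-669c-5p, the family's ratio was 0.705 at day 2 and 0.230 at day 4.
The miR-467 family summed to 721 and 454 CPM at day 2 (vehicle, then TGFβ), then 1308 and 542 at day 4 and then 1241 and 726 at day 8. Its day 2 interval excluded 1 with TMM scaling, at 0.630 (0.458 to 0.864), with its 5p arms at 0.516 (0.360 to 0.736). For miR-466 the day 2 interval included 1 with TMM scaling but not with total counts, at 0.819 (0.673 to 0.999). At day 4 the 3p arms of miR-467 stood at 0.112 (0.0728 to 0.166) and the 5p arms of miR-467 at 0.739 (0.596 to 0.916).
The miR-297 family was scarce, with 8 to 73 reads per library. Its sum was 64.8 and 47.2 CPM at day 2 (vehicle, then TGFβ), then 92.4 and 36.3 at day 4 and then 161 and 52.3 at day 8, and its ratio was 0.393 (0.189 to 0.786) at day 4 and 0.326 (0.229 to 0.463) at day 8. In it 92.9 to 100% of the reads were 3p in 4 of the 6 libraries, so it holds little information on the 5p arm.

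Single members of miR-466 are given first, as vehicle and TGFβ levels at each day. miR-466f-3p was at 429 and 483 CPM at day 2, then 2668 and 457 at day 4 and then 1388 and 576 at day 8. miR-466h-3p was at 129.6 and 177 CPM at day 2, then 1209 and 117 at day 4 and then 704 and 110.5 at day 8. Both were several times higher in the vehicle libraries of days 4 and 8 than in the other 4, and miR-466h-3p was lower with TGFβ by 10.4-fold at day 4 and 6.37-fold at day 8.
miR-466b-3p was at 105 and 100.2 CPM at day 2, then 628 and 62.3 at day 4 and then 356 and 113 at day 8. miR-466c-3p was at 32.4 and 23.6 CPM at day 2, then 166 and 15.6 at day 4 and then 92.4 and 29.1 at day 8. miR-466p-3p was at 16.2 and 11.8 CPM at day 2, then 81.3 and 7.78 at day 4 and then 46.2 and 14.9 at day 8. These 3 were given identical values for a precursor in the authors' RPM table, so reads were divided among them and they are not separate measurements.
miR-466a-3p was at 16.2 and 11.8 CPM at day 2, then 77.6 and 5.19 at day 4 and then 44.0 and 12.5 at day 8. miR-466d-3p was at 32.4 and 35.4 CPM at day 2, then 266 and 25.9 at day 4 and then 187 and 37.4 at day 8. miR-466e-3p was at 16.2 and 11.8 CPM at day 2, then 81.3 and 7.78 at day 4 and then 46.2 and 14.9 at day 8. The counts of miR-466e-3p equalled those of miR-466p-3p in every library. Per precursor, the RPM values of the 2 differed only in the vehicle library of day 8, at 51.54 and 51.14. miR-466e-3p is therefore not a separate measurement from miR-466p-3p. In the vehicle libraries of days 4 and 8, miR-466a-3p, miR-466d-3p and miR-466e-3p were each above their day 2 level and above both later TGFβ libraries. miR-466d-3p was 10.3-fold lower with TGFβ at day 4.
miR-466i-3p, whose sequence is given above and whose precursor is on chromosome 13, was at 56.7 and 41.3 CPM at day 2, then 251 and 46.7 at day 4 and then 121 and 57.3 at day 8. miR-466m-3p was at 24.3 and 0 CPM at day 2, then 59.1 and 10.4 at day 4 and then 26.4 and 11.6 at day 8, with 3 reads in the vehicle library of day 2 and 0 in the TGFβ library, a difference too small to read at this depth. miR-466g, which has no arm in its name, was at 40.5 and 53.1 CPM at day 2, then 362 and 49.3 at day 4 and then 200.2 and 83.9 at day 8. In all 3 the vehicle libraries of days 4 and 8 were again the highest. For miR-466m-3p the vehicle level of day 8 was 1.09 times (0.293 to 6.00) that of day 2, on 12 and 3 reads. miR-466i-3p is placed outside the Sfmbt2 locus by its name. Whether reads from the cluster were counted under that name was not tested, since sequences of the cluster's members were not at hand.

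The 5p members of miR-466 did not share that order. miR-466i-5p was at 437 and 354 CPM at day 2, then 477 and 275 at day 4 and then 154 and 110.5 at day 8. With vehicle and with TGFβ, its level was lower at day 8 than at days 2 and 4. The ratio of TGFβ to vehicle was 0.577 (0.442 to 0.752) at day 4, against 0.186 (0.104 to 0.316) for the 3p strand.
miR-466h-5p was at 40.5 and 35.4 CPM at day 2, then 140.4 and 46.7 at day 4 and then 81.4 and 82.2 at day 8. miR-466b-5p was at 32.4 and 5.90 CPM at day 2, then 18.5 and 5.19 at day 4 and then 15.4 and 9.14 at day 8. miR-466c-5p was at 24.3 and 41.3 CPM at day 2, then 70.2 and 28.5 at day 4 and then 30.8 and 60.6 at day 8. The first was highest in the vehicle library of day 4 and level between treatments at day 8, the next rested on 1 to 11 reads per library, and miR-466c-5p was below vehicle with TGFβ at day 4 and above it at day 8.

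In the miR-467 family, miR-467a-3p was at 64.8 and 106 CPM at day 2, then 606 and 64.9 at day 4 and then 475 and 84.7 at day 8. miR-467d-3p was at 8.10 and 11.8 CPM at day 2, then 59.1 and 7.78 at day 4 and then 48.4 and 8.31 at day 8. These 2 share reads, and both were high only in the vehicle libraries of days 4 and 8, with miR-467a-3p 9.35-fold lower with TGFβ at day 4 and 5.61-fold lower at day 8.
miR-467a-5p was at 251 and 142 CPM at day 2, then 251 and 205 at day 4 and then 341 and 309.8 at day 8. miR-467b-5p was at 24.3 and 11.8 CPM at day 2, then 25.9 and 20.8 at day 4 and then 33.0 and 30.7 at day 8. miR-467d-5p was at 243 and 64.9 CPM at day 2, then 174 and 145 at day 4 and then 154 and 189 at day 8. The ratio of miR-467a-5p had an interval that includes 1 at days 4 and 8, at 0.815 (0.582 to 1.14) and 0.908 (0.751 to 1.10). miR-467d-5p was lower with TGFβ at day 2, at 0.267 (0.121 to 0.548), on 30 vehicle and 11 TGFβ reads, and its intervals included 1 at the later days.
miR-467c-5p was at 105 and 82.5 CPM at day 2, then 140.4 and 80.4 at day 4 and then 143 and 83.1 at day 8. miR-467e-5p was at 16.2 and 29.5 CPM at day 2, then 40.7 and 15.6 at day 4 and then 22.0 and 17.4 at day 8. miR-467c-5p alone among the 5p members had both later vehicle libraries above the other 4, by a smaller margin than any named 3p member of its family, at 0.573 (0.345 to 0.945) for day 4.

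In the miR-669 family, miR-669a-3p was at 170.1 and 165 CPM at day 2, then 1164 and 197 at day 4 and then 1036 and 376 at day 8. miR-669o-3p was at 16.2 and 17.7 CPM at day 2, then 107 and 18.2 at day 4 and then 94.6 and 34.1 at day 8. These 2 share reads, and their day 4 levels with TGFβ were close to those of day 2.
miR-669f-3p was at 24.3 and 5.90 CPM at day 2, then 99.8 and 13.0 at day 4 and then 63.8 and 37.4 at day 8. miR-669p-3p was at 24.3 and 0 CPM at day 2, then 88.7 and 7.78 at day 4 and then 44.0 and 25.7 at day 8. Both rested on 0 to 3 reads in each day 2 library and were above their other levels in the vehicle libraries of days 4 and 8.
The 5p strand miR-669c-5p, made from Mir669c (chr2:10509296-10509404), was the most abundant member, with 2540 reads. It was at 1434 and 1722 CPM at day 2, then 1242 and 708 at day 4 and then 1122 and 791 at day 8. It was high in both day 2 libraries and in the later vehicle libraries, and its ratio was 0.570 (0.484 to 0.671) at day 4 and 0.705 (0.632 to 0.786) at day 8.
miR-669a-5p was at 162 and 76.6 CPM at day 2, then 59.1 and 70.0 at day 4 and then 94.6 and 59.8 at day 8. miR-669o-5p was at 32.4 and 53.1 CPM at day 2, then 11.1 and 15.6 at day 4 and then 26.4 and 9.14 at day 8. miR-669p-5p was at 24.3 and 11.8 CPM at day 2, then 11.1 and 13.0 at day 4 and then 15.4 and 9.97 at day 8. With vehicle, miR-669a-5p was 0.365 times (0.177 to 0.741) its day 2 level at day 4, the reverse of its 3p partner. The same ratio was 0.342 (0.0501 to 2.02) for miR-669o-5p, on 4 reads at day 2 and 3 at day 4. It was 0.456 (0.0611 to 3.41) for miR-669p-5p, on 3 and 3 reads, so neither could be read. miR-669p-5p also shares reads with miR-669a-5p. At day 4 the TGFβ to vehicle ratio of each of the 3 had an interval that includes 1.
miR-669l-5p was at 8.10 and 5.90 CPM at day 2, then 22.2 and 5.19 at day 4 and then 4.40 and 21.6 at day 8, on 1 to 26 reads per library, with a ratio of 4.91 (1.23 to 42.7) at day 8. Among members averaging 10 CPM or more over the pair of day 8 libraries it was the single one at least 2-fold higher with TGFβ. Below that minimum, miR-669f-5p had 1 vehicle and 18 TGFβ reads at day 8, a ratio of 6.80 (1.07 to 283).
The miR-297 members above the level minimum were all 3p and share reads. miR-297a-3p was at 16.2 and 23.6 CPM at day 2, then 48.0 and 18.2 at day 4 and then 77.0 and 22.4 at day 8. miR-297b-3p and miR-297c-3p had the same counts in every library, at 8.10 and 11.8 CPM at day 2, then 22.2 and 7.78 at day 4 and then 39.6 and 11.6 at day 8. They were highest in the vehicle library of day 8, and at day 4 their intervals include 1, with 0.378 (0.128 to 1.02) for miR-297a-3p.

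All 19 named 3p members had the vehicle libraries of days 4 and 8 above the other 4 libraries, against 1 of 14 named 5p members. Over all 373 miRNAs averaging 10 CPM or more the share was 12.3%, and over the 146 3p arms outside the families 7.53%. Of the 19, 16 were highest in the vehicle library of day 4 and 3 in that of day 8. A member reaches the minimum more easily if it is high in 1 library, and several share reads, so these 19 are neither all members nor independent. With no minimum, 26 of the 30 detected 3p members were lower with TGFβ than with vehicle at day 4, 1 was higher and 3 were equal. At day 8 the numbers were 26 lower, 2 higher and 2 equal, and at day 2 they were 10, 10 and 10. Of the 29 detected 5p members, 16 were lower and 8 higher at day 4, and 13 lower and 16 higher at day 8. The same counts without a minimum were not made over the other miRNAs. These numbers therefore have no background beside them and only describe the members.

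At a threshold of 2-fold on log2 CPM with a prior count of 2, members were counted among those whose mean over the day's pair of libraries was 10 CPM or more. At day 4, 26 of 35 were at least 2-fold lower with TGFβ (background over 366 miRNAs 17.8%) and 0 were higher (background 21.6%). Their median log2 change was -1.50, against 0.17 over all 366. The 26 comprised 20 of 20 members of the 3p arm, 5 of 14 of the 5p arm and miR-466g, with medians of -2.55 for 3p and -0.78 for 5p. Of the 35, 9 reached 10 CPM with vehicle only and so had to be lower, 7 of them among the 20 of the 3p arm and 2 among the 14 of the 5p arm. The counts therefore describe these members and are no support beside the background.
At day 8, 18 of 34 were at least 2-fold lower (background 21.6%) and 1 was higher (background 20.2%), with a median of -1.10 against 0.01 over all 361. The 3p arm gave 16 of 19 and the 5p arm 1 of 14 lower. Of the 34, 4 reached 10 CPM with vehicle only and 1 with TGFβ only.
At day 2, 8 of 32 were at least 2-fold lower (background 14.1%) and 0 were higher (background 11.9%), with a median of -0.34. Here 6 of the 32 reached 10 CPM with vehicle only and so had to be lower, and with a minimum of 2 CPM 13 were lower and 7 higher. The interval of the ratio lay below 1 for 3 of the 32, all 5p (miR-467a-5p, miR-467d-5p and miR-669a-5p). Over all miRNAs it lay below 1 for 61 of 362, a larger share. The day 2 libraries, at 108716 and 178877 reads, do not resolve a change of that size for most members.

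**Figure D2:**
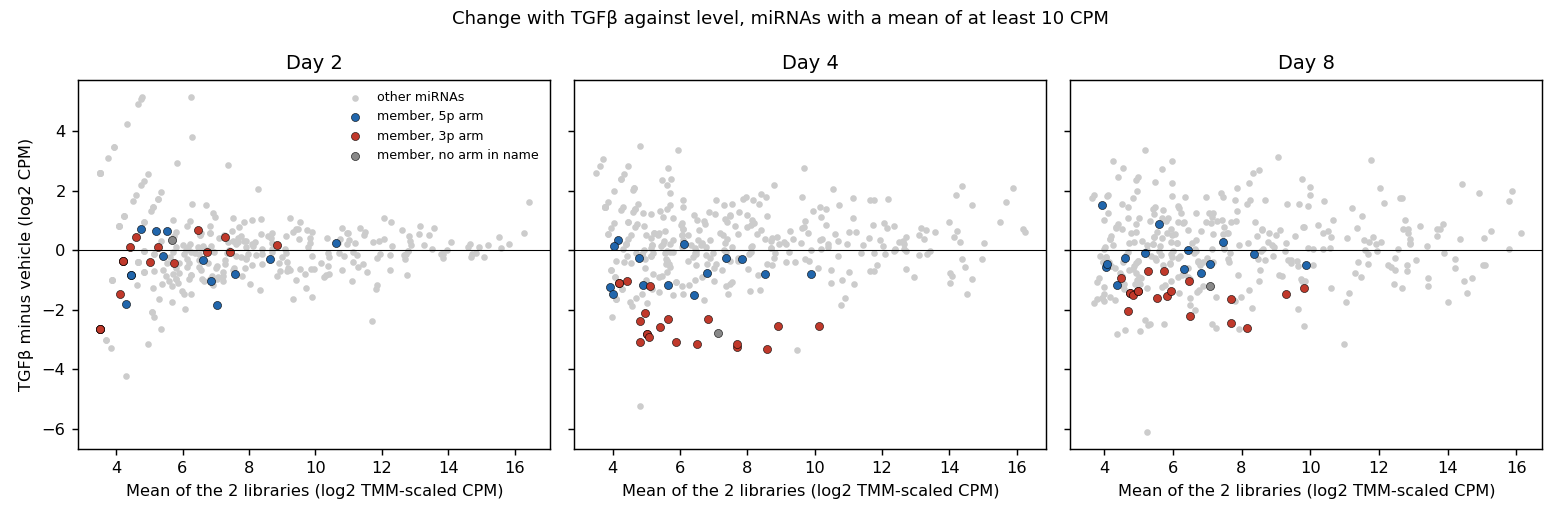
Change with TGFβ (vertical axis, log2 CPM with a prior count of 2, TGFβ minus vehicle) against the mean log2 CPM of that day's pair of libraries (horizontal axis), 1 point per miRNA whose mean was 10 CPM or more. At day 4 the 3p members (red) all lie below -1, most of them below every 5p member (blue), with the other miRNAs in grey centred near 0.

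The arms of 1 name were then compared, and both reached the minimum for 9 names. The names are not matched precursor for precursor, since miR-467a shared reads with miR-467d in its 3p arm and with miR-467b in its 5p arm, and miR-669a shared reads with miR-669o in its 3p arm and with miR-669p in its 5p arm. For the same reason the 9 names are not separate measurements. At day 4 the log2 change of the 3p arm was below that of the 5p arm in 9 of 9 (48.9% over all 94 such names), with a median difference of -2.11 and a range from -3.08 to -1.53. Among the 85 other names it was below in 37, and 3 of the 85 had a difference of -2 or lower, as had 6 of the 9. At day 8 it was below in 9 of 9 members (56.4% over all names), with a median difference of -1.08 and a range from -2.64 to -0.19. At day 2 it was below in 4 of 9 (52.1% over all names), with a median of 0.61.
The read ratio of 3p to 5p for miR-467a was 0.258 and 0.750 at day 2 (vehicle, then TGFβ), then 2.41 and 0.316 at day 4 and then 1.39 and 0.273 at day 8. For miR-466h it was 3.20 and 5 at day 2 (vehicle, then TGFβ), then 8.61 and 2.50 at day 4 and then 8.65 and 1.34 at day 8. For miR-669a it was 1.05 and 2.15 at day 2 (vehicle, then TGFβ), then 19.7 and 2.81 at day 4 and then 11.0 and 6.29 at day 8. In each name the later vehicle libraries had the highest ratio, and miR-467a passed from mostly 5p with TGFβ to mostly 3p with vehicle.
For miR-466i it was 0.130 and 0.117 at day 2 (vehicle, then TGFβ), then 0.527 and 0.170 at day 4 and then 0.786 and 0.519 at day 8. By name, 5p reads exceeded 3p reads in every library, and the ratio was highest in the vehicle library of day 8 (0.542 to 1.13). The vehicle library of day 4 (0.387 to 0.712) and the TGFβ library of day 8 (0.382 to 0.699) could not be told apart. The authors' RPM table divides miR-466i-5p between the chromosome 13 precursor and a second entry that matched no annotated gene, and gives miR-466i-3p to the first alone. On that precursor the 5p strand was at 259 and the 3p strand at 292 RPM in the vehicle library of day 4, and at 85.1 and 133 RPM in that of day 8. For miR-467d it was 0.0333 and 0.182 at day 2 (vehicle, then TGFβ), then 0.340 and 0.0536 at day 4 and then 0.314 and 0.0439 at day 8. The names miR-466b, miR-466c, miR-669o and miR-669p had higher ratios with vehicle than with TGFβ at day 4, on 2 to 19 reads of the 5p arm in each day 4 library. At day 8 miR-669o and miR-669p differed little between treatments, with 3.58 and 3.73 for miR-669o and 2.86 and 2.58 for miR-669p.

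**Figure D3:**
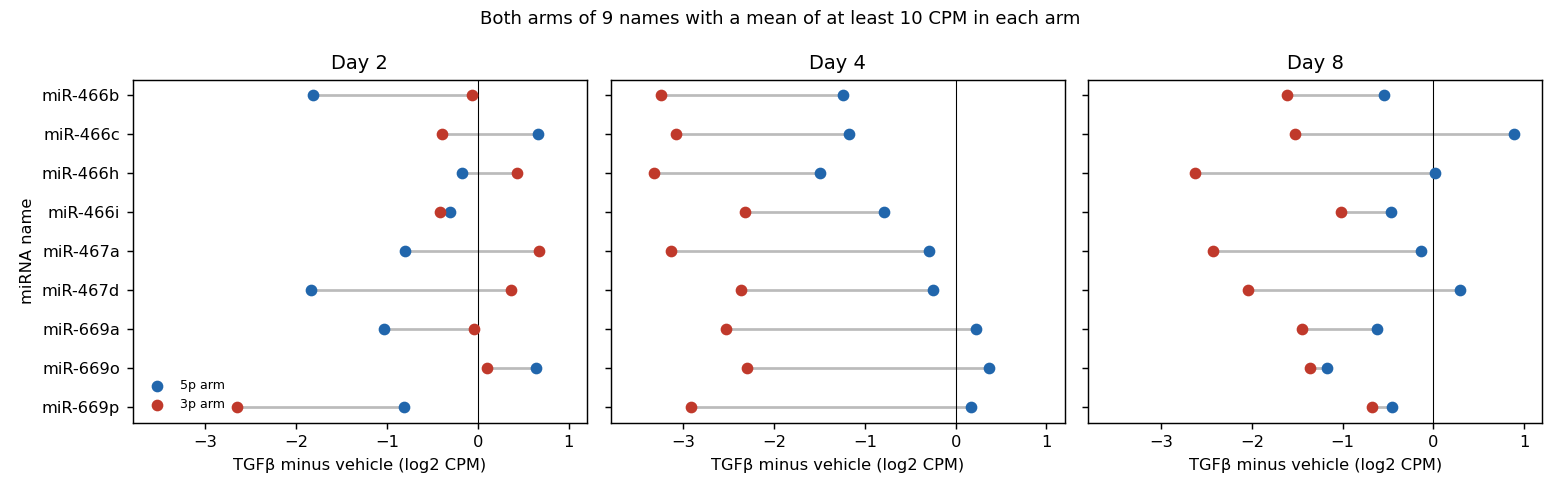
Change with TGFβ (horizontal axis, log2 CPM, TGFβ minus vehicle) of the 5p arm (blue) and the 3p arm (red) of 9 miRNA names with both arms at a mean of at least 10 CPM, joined by a line, in 3 panels for days 2, 4 and 8. At days 4 and 8 every red point lies left of its blue point, and at day 2 the order is mixed.

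Along the locus, the authors' RPM table divides the reads of a mature miRNA among its precursors. It held 93 pairs of a member and a precursor for 38 members, which have 98.6% of the members' reads, and 89 of the pairs lay inside Sfmbt2. RPM values summed over precursors and multiplied by the library total came within 0.542 reads of the counts, so reads that match several precursors had been split. Many repeated copies carry equal values, and copies that share a mature miRNA are not separate measurements.
Precursors with values equal to those of no other precursor lay at both ends of the cluster. One of them, Mir466f-1, nonetheless held divided reads. Reads of miR-466f-3p were split unequally among Mir466f-1, Mir466f-2 and Mir466f-3, at 162.7, 1480.9 and 1467.9 RPM in the vehicle library of day 4. The values on Mir466f-1 are thus not a separate measurement. At the 5′ end, miR-466f-3p of Mir466f-1 (chr2:10466944-10467037) was at 73.6 and 30.3 RPM at day 2 (vehicle, then TGFβ), then 162.7 and 27.4 at day 4 and then 65.0 and 21.0 at day 8. At the 3′ end, the 3p strand of Mir466h (chr2:10514891-10514971) was at 145.7 and 167.7 RPM, then 1409.7 and 97.9, then 772 and 96.0, in the same order. Nearby, miR-466d-3p of Mir466d (chr2:10511967-10512062) was at 36.8 and 35.3 RPM, then 310.3 and 22.6, then 205.5 and 32.6. All 3 were highest in the vehicle library of day 4, while the neighbouring 5p strand of Mir669c was at 1628 and 1633 RPM, then 1446 and 593.8, then 1229 and 685.6.

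**Figure D4:**
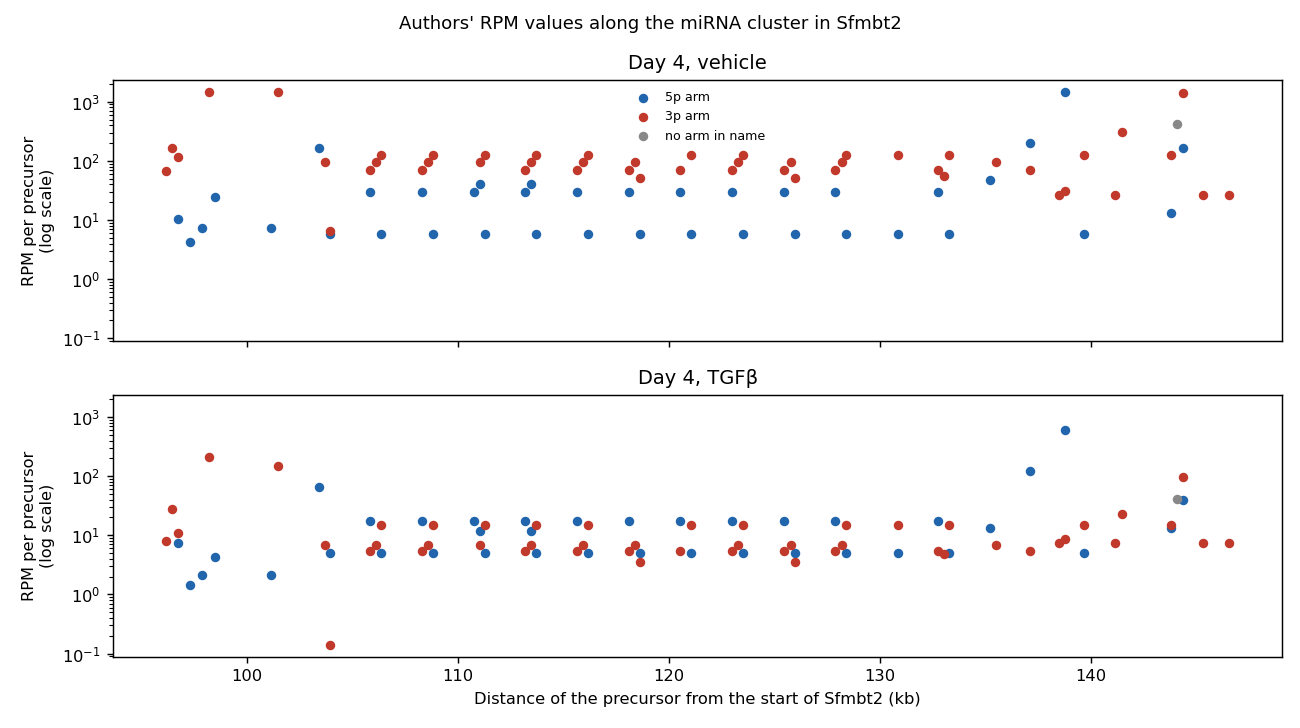
Authors' RPM (vertical axis, log scale) of each pair of a member and a precursor inside Sfmbt2 in the 2 day 4 libraries, against the distance of the precursor from the start of Sfmbt2 in kb (horizontal axis). With vehicle most 3p points (red) lie above the 5p points (blue) of the same copies, and with TGFβ most 3p points are lower than with vehicle while the 5p points move less, so that some copies hold more 5p than 3p. Equal values at regular spacing are shared reads.

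The only test the design allows joins the 6 libraries, with the TGFβ effect averaged over days and day as a factor. It measures the spread between days and not between replicate colonies. In edgeR's quasi-likelihood test with Benjamini-Hochberg adjustment, 0 of the 26 members tested were called at an adjusted p under 0.05 (1.94% of all 309 tested). At an unadjusted p under 0.05, 16 of the 26 were lower and 0 higher (13.6% of all tested were lower). These were 15 of the 16 tested 3p members and miR-466g. The smallest adjusted p of a member in that test was 0.0980, for miR-466d-3p, with a log2 change of -2.20 ± 0.65 (SE). The fitted log2 change was below 0 for 16 of 16 members of the 3p arm, from -2.23 to -1.24. It was below 0 for 8 of 9 of the 5p arm, from -0.67 to 0.10, and for 157 of all 309 miRNAs tested. Several of the 3p members share reads, so the 16 are not separate measurements.
The call depended on scaling and on the days included. DESeq2's Wald test called 4 of the 21 members to which it gave an adjusted p, miR-466b-3p, miR-466h-3p, miR-467a-3p and miR-669a-3p. Over all miRNAs it called 29 of 278. edgeR called 14 of 26 members with DESeq2's size factors and 16 of 26 with total counts, against 58 of all 309 miRNAs each time. Without day 2 it called 15 of 30, against 109 of all 314. All these members were lower. It called 0 without day 4 (2 of all 283) and 0 without day 8 (3 of all 248). The settings that called members also called more miRNAs over all, where the main fit called 6 of 309.
For day 8 against day 2, edgeR called 0 of the 26 members (6.80% of all 309), with 2 at an unadjusted p under 0.05 (28.5% of all 309). DESeq2's Wald test called 2 of 36 members (52 of all 381). miR-466i-5p was lower at day 8, by a log2 change of -1.59 with an edgeR adjusted p of 0.0650. miR-669a-3p was higher, by 1.78 with an edgeR adjusted p of 0.104.

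Outside the 4 families, miR-574 has these repeats in both strands and a mean of at least 10 CPM in each, and it was chosen for comparison after its values were seen. Its RefSeq sequences are shown with the seed in capitals, to set its ACACAC and GUGUGU stretches beside those above.
miR-574-3p: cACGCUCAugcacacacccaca
miR-574-5p: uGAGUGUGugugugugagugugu
Levels were read as for the members. miR-574-3p was at 1134 and 1515 CPM at day 2, then 4036 and 2469.8 at day 4 and then 3861 and 2078 at day 8. miR-574-5p was at 3102 and 3768 CPM at day 2, then 4468 and 2734 at day 4 and then 3079.9 and 2370.3 at day 8. Both strands were 0.612 times their vehicle level with TGFβ at day 4 (0.560 to 0.668 for 3p and 0.563 to 0.665 for 5p), so the arms did not separate at day 4 as those of the 9 names did. At day 8 their intervals did not overlap, at 0.538 (0.506 to 0.572) and 0.770 (0.722 to 0.821).

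The mRNA data are the authors' deposited tables of ratios, 1 per day with 998 genes each, whose headers name no direction. Sfmbt2, its neighbours Itih5, Itih2, Prkcq and Gata3, 10 Polycomb genes and 10 genes of miRNA processing, 25 in all, were looked up, and 0 were listed at any day. The tables list only large ratios. The smallest ratio above 1 was 3, 5 and 5 at days 2, 4 and 8, and ratios below 1 were at least 7-fold from 1 at each day. Genes that are not listed are therefore not shown to be unchanged. Among the precursors of the members, the authors' deposited tables listed Mir669i at day 2, with a ratio of 3, and Mir669k at day 4, with a ratio of 0.143. The mature members of both had 0 reads in all 6 miRNA libraries.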

How the data were processed

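Per the labels, 6 miRNA and 6 mRNA libraries were made from AKR-2B colonies, 1 per treatment and day. The authors deposited read counts per mature miRNA, unscaled, and RPM values per pair of mature miRNA and precursor, scaled to each library's total reads. The authors deposited the mRNA data as a ratio per gene and day. Per the submitters' processing notes, edgeR 3.9 and mm10 were used, with no role stated; the aligner is not given in the sources used here, nor is the counter.

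Counts were scaled by TMM in edgeR 4.0.16 (R 4.3.3) after its expression filter, tested with its quasi-likelihood test on day plus treatment (Benjamini-Hochberg, 0.05, 2 residual degrees of freedom), and refitted with DESeq2 1.42.0. Log2 changes used a prior count of 2. Ratios carry exact conditional binomial 95% intervals. Fit and intervals were tested on simulated data. Members with a mean of at least 10 CPM are named. Members, lists and tests were chosen with earlier results of these data known. Precursors were placed with GENCODE M21; 89 of 93 pairs matched inside Sfmbt2, 2 elsewhere and 2 matched none. Alternatives were other scalings, level minimums and prior counts, leaving out a day or the top member, and collapsing shared reads.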

Additional observations from a re-analysis of the deposited data

Results flagged for a closer look

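miR-466c-5p stood out because its counting intervals lay on opposite sides of 1 at 2 days. Its ratio of TGFβ to vehicle was 0.406 (0.175 to 0.899) at day 4, on 19 vehicle and 11 TGFβ reads, and 1.97 (1.10 to 3.78) at day 8, on 14 and 73 reads. The difference between the days was not tested, since each has 1 library per treatment.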

How the results depend on the processing

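Of 106 alternative values, 62 kept their direction and side of the threshold or moved by less than counting error. Another 29 moved, 14 gave a larger count and 1 a smaller count. The main fit called 0 members, so there was no called member that an alternative could reverse. Scaling to total counts shifted every log2 change by -0.26, -0.48 and -0.34 at days 2, 4 and 8. The summed ratio of all members was then 0.800, 0.187 and 0.376, of miR-669 0.894, 0.270 and 0.439, of miR-466 0.128 at day 4 and 0.306 at day 8, of miR-467 0.298 and 0.463, and the members' median was -1.95 and -1.39. The 3p ratio at day 2, 1.05 with TMM, was 0.875 with total counts, with 1 inside both intervals, whereas the 5p ratio went from 0.910 to 0.760 (0.661 to 0.875), which excludes 1, as did all members and miR-466 with total counts. DESeq2's size factors gave 0.232 for all members and 0.158 for miR-466 at day 4, and medians of -0.19 at day 2 and -1.66 at day 4. Without miR-669c-5p the ratio of all members was 0.832, 0.221 and 0.435, and that of miR-669 0.705, 0.230 and 0.437; without miR-467a-5p that of miR-467 was 0.319 at day 4 and 0.462 at day 8.

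With a minimum of 2 CPM, 13 members were at least 2-fold lower and 7 higher at day 2, 2 were higher at day 8, and the medians were -0.22, -1.22 and -0.73. A prior count of 0.5 gave a day 4 median of -1.88. Requiring 10 reads left 42 detected members. Members called for TGFβ numbered 16 with total counts and 14 with DESeq2's size factors (58 of all 309 miRNAs in both). DESeq2's Wald test called 4 (29 of all 278). edgeR called 8 with no filter (46 of all 664) and 15 without day 2 (109 of all 314). For day 8 against day 2 the members called numbered 2 with total counts (54 of all 309) and 2 with DESeq2's size factors (58 of all 309). DESeq2's Wald test called 2 (52 of all 381), and edgeR with no filter called 1 (62 of all 664). Both sets of alternatives that follow were chosen after seeing the data. TMM factors from all miRNAs gave 5 and 1 member calls (33 and 47 of all 309). Counting members with shared reads once gave a day 8 median of -0.84, with miR-466e-3p still counted apart from miR-466p-3p. The causes were not tested. Collapsing members of identical mature sequence was not run, since 8 sequences were at hand. No paired analysis was possible because each group has 1 library and so no replicate numbers to pair; day was already a term of the fit. The limits are the single library per group, the low depth at day 2 and reads shared between members.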
